A study of Mus musculus with 4 samples.

Results

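The genes of the T cell coreceptors CD4 and CD8 and of the transcription factor that sets the CD4 lineage held 15 regions of open chromatin of 97394 in all. These were Cd4, Cd8a and Cd8b1, which encode CD4 and the 2 chains of CD8, and Zbtb7b, which encodes ThPOK. A region was a run of overlapping ATAC-seq peaks (at least 1 bp) from any of 4 libraries, and it counted for a gene when that gene had the nearest protein-coding RefSeq interval on GRCm38 within 100 kb of the region's midpoint. Cd4 had 3 regions, Zbtb7b 6, Cd8b1 5 and Cd8a 1. ATAC-seq marks open DNA with a transposase, and each library came with its own list of peaks.

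All libraries were made from TCRSMARTA transgenic CD4 T cells, whose receptor sees the GP61 peptide, taken from the tumor-draining lymph node (tdLN) on day 11 after naive cells had been given to cytoxan-treated hosts with B16-GP61 melanoma. The 2 TOX KO libraries, KO-1 and KO-2, came from cells sorted as CD4+ Ly5.1+ Ly5.2- with low PD1, LAG3 and CD39. The 2 TOX WT libraries, WT-1 and WT-2, were sorted as CD4+ cells carrying both Ly5.1 and Ly5.2, in the gate of high PD1, high LAG3 and high CD39. Genotype, congenic marker and sort gate therefore changed together and cannot be told apart. The labels give neither the deleted part of Tox nor how it was deleted, and how far cytoxan removed the lymphocytes of the hosts is not stated. Nothing says whether replicates came from separate animals. P-values then measure only the spread between these libraries.

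CD4 and CD8 are expressed together on immature thymocytes, and a mature T cell keeps one of them. In cells that become CD4 T cells, ThPOK keeps the Cd8 genes and the CD8 lineage factor Runx3 off, while Runx proteins silence Cd4 and Zbtb7b in CD8 T cells. In the mouse thymus TOX is needed for the CD4 lineage to form. Cd4 is known to be controlled by upstream enhancers and a silencer within the gene, the Cd8 genes by a cluster of enhancers, and Zbtb7b by a silencer and a pair of promoters.

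The lists held 43078 peaks in KO-1 and 61773 in KO-2, against 56852 in WT-1 and 61489 in WT-2. Between 1603 and 1900 peak numbers were missing per list, so an absent peak can be one that was taken out, and without read numbers the depth is unknown. Within 1 kb of the end of Tox where its transcription starts, neither KO library had a peak, while each WT library had 1 (fold enrichments 6.57 and 7.12 in WT-1 and WT-2). Strength is given below as the deposited fold enrichment of a peak over the caller's background, or as the percentile of that value within the library's own list, where 100 is the strongest peak. Both are the authors' values of single peaks. Percentiles from lists of different length show no change by themselves, so they describe each list.

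The strongest peaks at Cd4 and Zbtb7b ranked above those at the Cd8 genes in every library. The strongest peak at Cd4 stood at percentile 85.5 in KO-1 and 91.4 in KO-2, against 82.1 in WT-1 and 83.7 in WT-2. For Zbtb7b it stood at 80.4 in KO-1 and 77.1 in KO-2, against 80.1 in WT-1 and 83.3 in WT-2. For Cd8b1 it stood at 55.2 in KO-1 and 73.4 in KO-2, against 51.0 in WT-1 and 57.0 in WT-2. Cd8a had no peak in KO-1, KO-2 or WT-2 and 1 peak at percentile 9.92 in WT-1. By fold enrichment the order Cd4, Zbtb7b, Cd8b1, Cd8a was thus the same in each of the 4 libraries. By the percentile of −log10 q, Zbtb7b stood above Cd4 in 3 of them, at 90.7 and 88.4 in KO-1, 88.7 and 83.0 in WT-1, and 91.6 and 83.1 in WT-2, and below it in KO-2, at 90.5 and 93.8. The ranges of Cd4 and Zbtb7b over the 4 libraries overlapped, while those of Zbtb7b and Cd8b1, and of Cd8b1 and Cd8a, did not. The median over all protein-coding genes with a peak was 82.2 in KO-1 and 85.6 in KO-2, against 85.4 in WT-1 and 86.2 in WT-2. Both Zbtb7b and Cd8b1 lay below it in every library, and Cd8a did in WT-1, where it had a peak. Cd4 lay above it in KO-1 and KO-2 and below it in WT-1 and WT-2. Among the genes with a peak, the share at or below Cd4 was 57.6% in KO-1 and 67.2% in KO-2, against 42.6% in WT-1 and 43.9% in WT-2. For Zbtb7b that share was 46.4% in KO-1 and 34.9% in KO-2, against 39.0% in WT-1 and 43.2% in WT-2. For Cd8b1 it was 20.1% in KO-1 and 30.5% in KO-2, against 14.9% in WT-1 and 17.8% in WT-2. Zbtb7b and Cd8b1 were thus close in KO-2.

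**Figure D1:**
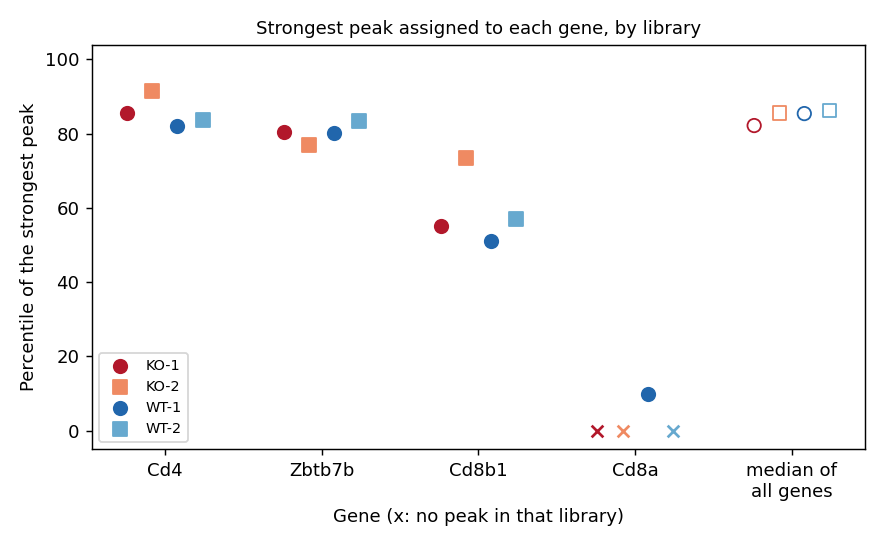
Percentile of the strongest peak assigned to each gene (y axis, 100 is the strongest peak of a list) for the 4 libraries, KO left of WT, with crosses at 0 for no peak and open symbols for the median over all protein-coding genes with a peak in that library. Cd4 lies between 82.1 and 91.4, Zbtb7b between 77.1 and 83.3, Cd8b1 between 51.0 and 73.4, and Cd8a has its single peak at 9.92.

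A peak in every library was found at 6 of the 15 regions (40%), against 27.6% of all regions. None of the 15 was KO-only, meaning a peak in KO-1 and KO-2 but in no WT library, against 1.78% of all regions. None was WT-only, against 8.8% of all regions. With 15 regions, little can be read from counts of 0 at such backgrounds. Another 6 regions had a peak in KO-2 alone (40%, against 18.8% of all regions), 1 in WT-1 alone (6.67%, against 8.96% of all regions), none in KO-1 alone (7.68% of all regions), none in WT-2 alone (13% of all regions), 1 in KO-2 and WT-2, and 1 in all but KO-1. The 7 single-library regions were 190 to 326 bp wide with −log10 q values of 2.00 to 5.63, and the 6 found in every library were 514 to 1389 bp wide with values of 3.89 to 155.

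The number of regions with a peak, over the 4 genes together, was 6 in KO-1 and 14 in KO-2, against 8 and 8 in WT-1 and WT-2. As a share of the 15 regions this was 40% in KO-1 and 93.3% in KO-2, against 53.3% and 53.3% in WT-1 and WT-2. Over all regions the share was 40.9% in KO-1 and 60.0% in KO-2, against 54.4% in WT-1 and 60.2% in WT-2, so KO-2 alone lay far from its background. The mean was 10 ± 5.66 in KO and 8 ± 0 in WT libraries (SD, n = 2 each), a difference of 2 that is smaller than the KO spread (exact two-sided permutation p = 1). The smallest p that 2 against 2 libraries allow is 0.333, so no count here could pass 0.05. For Cd8b1 the mean was 3 ± 2.83 in KO and 1 ± 0 in WT libraries (SD, n = 2 each), and all of its difference came from KO-2. Without KO-2 the difference over the 4 genes was −2.5 in place of 2.

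**Figure D2:**
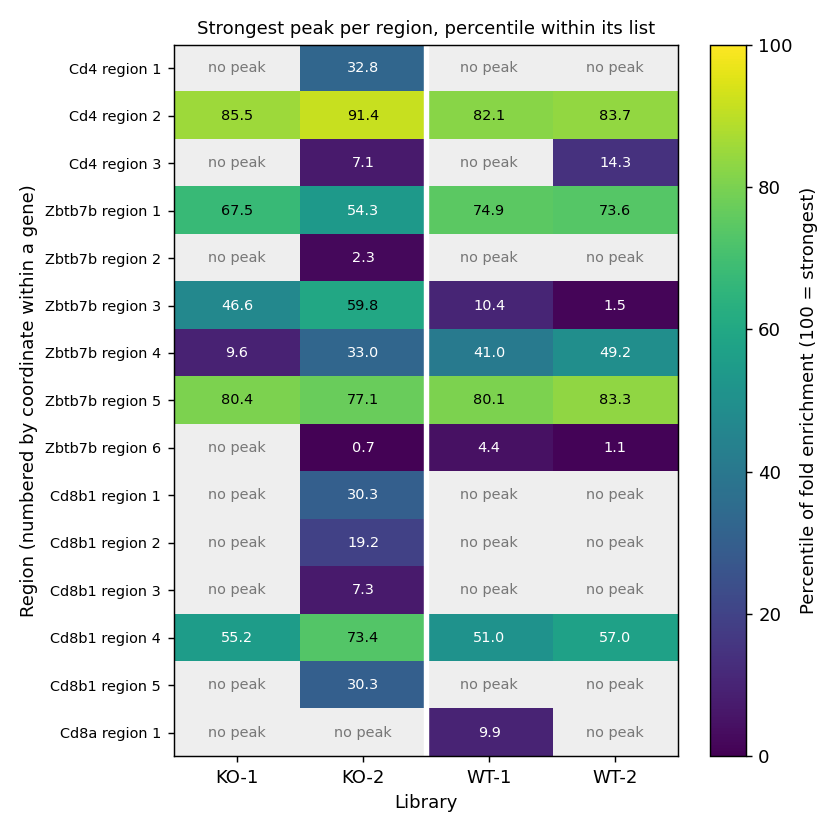
Percentile of fold enrichment of the strongest peak in each of the 15 regions (rows, numbered by coordinate within a gene) in each library (columns, KO left of WT), with grey for no peak. The 6 rows with a value in every library are 1 at Cd4, 4 at Zbtb7b and 1 at Cd8b1, and Zbtb7b region 3 has 46.6 and 59.8 in the KO libraries beside 10.4 and 1.54 in the WT libraries.

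Cd4 (chromosome 6, 124864693 to 124888247) encodes the coreceptor that binds MHC class II and brings the kinase Lck to the T cell receptor. Its main region lay within the gene at 124884875 to 124886263. The summits fell at positions 124885359 to 124885363, a range of 4 bp, which is 2884 to 2888 bp into the gene from its start at the upper end. The fold enrichment was 8.41 in KO-1 and 13.7 in KO-2, against 8.78 in WT-1 and 9.05 in WT-2. Only KO-2 stood apart, and the fold ranges of the genotypes overlapped. The percentiles did not overlap and were higher in KO, as they were at 16.5% of all 26867 regions with a peak in every library. Among the 20000 peaks of each list with the highest −log10 p, which makes the lists equally long, the percentile of fold enrichment was 68.9 in KO-1 and 73.5 in KO-2, against 49.3 in WT-1 and 49.8 in WT-2. How often other regions differ this way in the equally long lists was not computed.

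Peaks at the start of Cd4 itself were weak. The region over it, at 124888114 to 124888349, had a peak in KO-2 with a fold enrichment of 2.97 and in WT-2 with 2.66, and none in KO-1 or WT-1. The third region, at 124875683 to 124875872, was found in KO-2 alone, with a fold enrichment of 3.45. By comparison, 41.2% of 21627 protein-coding genes had an end covered by a peak in every library, and 51.2% had none covered in any. The remaining 7.63%, Cd4 among them, had an end covered in some libraries only. These shares count either end of a gene and not the start alone. The strongest Cd4 peak of each list thus lay within the gene and not at its start.

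Upstream of Cd4 lay 5 further regions, which the nearest-gene rule gave to Lag3, the neighbor whose protein also binds MHC class II. The gap between the genes is 16111 bp, and 3 of the 5 regions had a peak in every library. The one nearest to Cd4 of these, at 124900942 to 124901489, showed fold enrichment at 3.92 in KO-1 and 5.75 in KO-2, against 4.31 and 4.24 in WT-1 and WT-2. The next, at 124901729 to 124902441, had 5.33 in KO-1 and 6.83 in KO-2, against 3.61 and 3.13 in WT-1 and WT-2. The last, at 124903536 to 124904406 over the near end of Lag3, had 3.64 in KO-1 and 4.01 in KO-2, against 5.40 and 7.88 in WT-1 and WT-2. The genotypes did not overlap at the last 2, with KO higher at the one (16.5% of all regions with a peak in every library, by percentile) and WT higher at the other (25.9%). From the start of Cd4 to the midpoints of these regions the distance was 12968, 13838 and 15724 bp, and whether they act on Cd4, Lag3 or both was not tested.

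**Figure D3:**
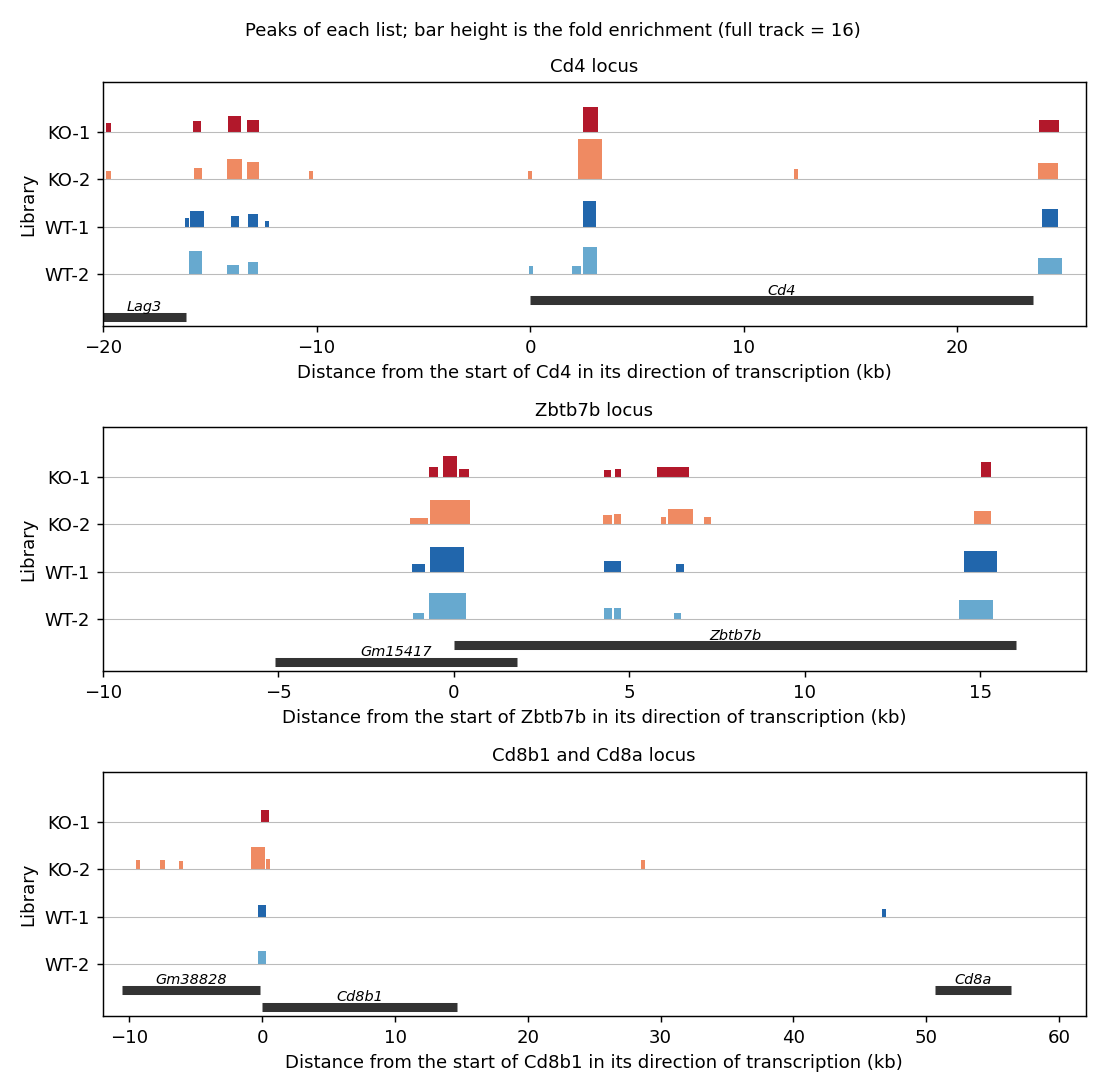
Peaks of each library along the 3 loci, drawn as bars as wide as the peak (the narrowest at a minimum width) and as high as its fold enrichment, against the distance from the start of Cd4, Zbtb7b or Cd8b1 in its direction of transcription (kb), with gene intervals below and KO above WT. Every library has a tall peak inside Cd4, a tall peak at the start of Zbtb7b and a peak at the start of Cd8b1, and the Cd8a interval has none.

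Zbtb7b (chromosome 3, 89377644 to 89393673) encodes a zinc finger repressor, and with 6 regions it held the most of the 4 genes. The strongest region covered its start at the upper end, at 89393225 to 89394385. The fold enrichment was 7.20 in KO-1 and 8.35 in KO-2, against 8.20 in WT-1 and 8.92 in WT-2. These values overlapped between the genotypes. The lncRNA gene Gm15417 overlaps this end of Zbtb7b by 1810 bp and also holds the smaller region beyond it at 89394419 to 89394933, so the 2 genes cannot be told apart there. That smaller region had a peak in KO-2, WT-1 and WT-2 with fold enrichments of 2.24, 2.55 and 2.14, and none in KO-1.

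RefSeq (GRCm38.p6) gives Zbtb7b 2 promoter windows, each running 250 bases before to 50 after a start, and both are shown because peaks covered them differently. They are written in the direction of transcription from the minus strand, and capitals mark GGAAGT (ETS family core), GGGCGG (GC box of SP and KLF proteins) and TGTGGT (RUNX family core).
Zbtb7b upstream promoter, chr3:89393329-89393628: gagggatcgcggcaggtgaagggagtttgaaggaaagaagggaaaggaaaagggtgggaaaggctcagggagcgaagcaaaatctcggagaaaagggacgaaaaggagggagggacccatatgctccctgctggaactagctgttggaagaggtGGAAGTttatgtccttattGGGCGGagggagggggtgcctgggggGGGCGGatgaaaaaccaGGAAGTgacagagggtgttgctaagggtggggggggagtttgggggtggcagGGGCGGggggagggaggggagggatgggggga
Zbtb7b internal promoter, chr3:89387622-89387921: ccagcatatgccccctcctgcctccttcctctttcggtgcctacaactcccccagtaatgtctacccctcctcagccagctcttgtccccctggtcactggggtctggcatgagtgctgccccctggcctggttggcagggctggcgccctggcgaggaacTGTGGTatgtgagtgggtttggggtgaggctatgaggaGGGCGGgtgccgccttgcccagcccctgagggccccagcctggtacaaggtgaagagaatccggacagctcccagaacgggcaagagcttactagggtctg

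The upstream window was covered by peaks over 247 of its 300 bases in KO-1 and 300 in KO-2, against 257 and 300 in WT-1 and WT-2. The internal window was covered over 262 bases in KO-1 and 150 in KO-2, against 0 in WT-1 and 0 in WT-2. Of 32619 such windows on the chromosomes with peaks, 34.5% had a peak in every library, and 58 (0.178%) had one in KO-1 and KO-2 but in no WT library. The upstream window held 2 GGAAGT and 3 GGGCGG matches and no TGTGGT, and the internal window held 1 TGTGGT, 1 GGGCGG and no GGAAGT, counting both strands. Over 32851 windows of the same length these motifs occur in 23.8%, 35.7% and 16.8%, in the order ETS, GC box and RUNX. The G run GGGGGG, present in 17.9% of all windows, occurred 8 times in the upstream window, with overlaps among its copies and with a GC box, and not in the internal one. The motif of the zinc finger factors related to Gata3, spelled TGATAA, is in 9.05% of windows and was in neither of these. The promoter box spelled TATAAA is in 13.6% and was in neither, and CANNTG (E-box, 72.3%) occurred 2 times in the upstream and 1 time in the internal window. A match describes letters only.

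The strongest peak of the region that holds part of the internal promoter window was stronger in both KO libraries. This region, at 89386871 to 89387883, showed fold enrichment at 3.52 in KO-1 and 5.14 in KO-2, against 2.62 and 2.21 in WT-1 and WT-2. The −log10 q was 14.8 in KO-1 and 32.8 in KO-2, against 4.98 in WT-1 and 3.89 in WT-2. Neither measure overlapped between the genotypes. Peaks covered 914 bp of the region in KO-1 and 840 bp in KO-2, against 243 bp in WT-1 and 202 bp in WT-2. The summits nevertheless fell within 37 bp of each other in the 4 libraries, so the WT peaks were narrower and weaker ones at the same site. In KO-1 the strongest peak reached into the promoter window. In KO-2 it ended before the window, and a second peak with a fold enrichment of 2.52 covered the 150 bases there, which lies between the WT values for the region.

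By percentile this region stood at 46.6 in KO-1 and 59.8 in KO-2, against 10.4 and 1.54 in WT-1 and WT-2. The mean was 53.2 ± 9.34 in KO and 5.95 ± 6.23 in WT libraries (SD, n = 2 each), a difference of 47.3 percentile points. Over all 26867 regions with a peak in every library the median difference was −1.33 points (SD 13.0), and 69 of them (0.257%) lay as far or farther on the KO side. The region was singled out after its values were seen, so this places it in the distribution and is no test. When only peaks with a −log10 q of at least 5 were counted it had peaks in the KO libraries alone, as did 2.19% of the regions left by that rule. The same held at a −log10 q of at least 10 (1.85% KO-only) and among the 20000 peaks of each list with the highest −log10 p (6.77% KO-only). Within those equally long lists its percentile of fold enrichment was only 3.94 in KO-1 and 4.21 in KO-2.

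**Figure D4:**
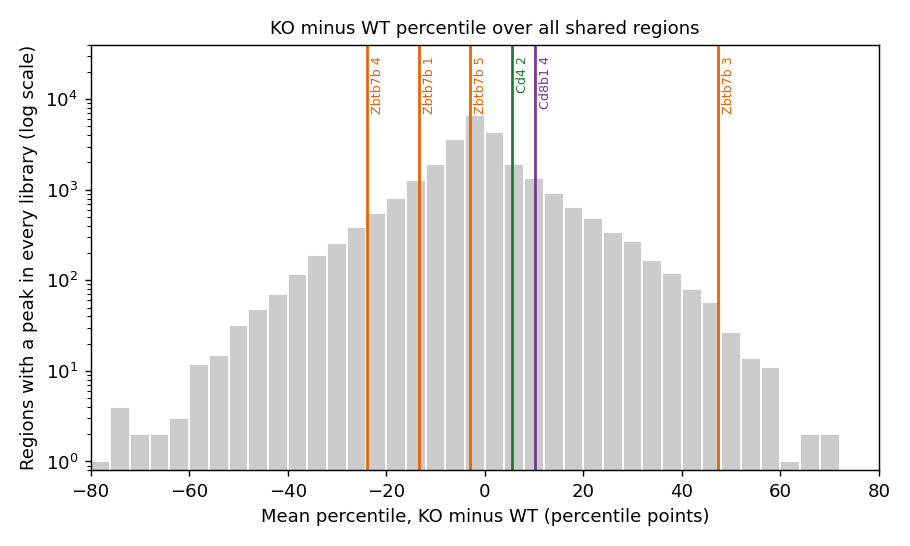
Mean percentile in KO minus mean percentile in WT (x axis, percentile points) for the 26867 regions with a peak in every library (grey bars, y axis on a log scale), with lines for the 6 such regions at Cd4, Cd8b1 and Zbtb7b, numbered as in the heat map of percentiles. Zbtb7b region 3 lies at 47.3 on the KO side, and the other 5 lie between −23.8 and 10.2.

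Elsewhere in Zbtb7b the order was the other way or absent. The region at 89378181 to 89379268, near the lower end of the gene where transcription ends, showed fold enrichment at 5.07 in KO-1 and 4.64 in KO-2, against 6.95 in WT-1 and 6.48 in WT-2. Peaks covered 282 and 480 bp of it in KO-1 and KO-2, against 941 and 956 bp in WT-1 and WT-2. It was thus narrower and lower in fold in both KO libraries, with no overlap between the genotypes. Among the 20000 peaks with the highest −log10 p this order did not hold, with percentiles of 29.9 in KO-1 and no peak in KO-2, against 28.7 and 19.0 in WT-1 and WT-2. The region at 89388896 to 89389409 showed fold enrichment at 2.76 in KO-1 and 3.46 in KO-2, against 3.60 and 3.82 in WT-1 and WT-2. It held a pair of nearby peaks in KO-1, KO-2 and WT-2 and 1 peak over both places in WT-1. Which of the pair was stronger differed, with little between them in WT-2, at 3.82 and 3.66. Its percentiles of −log10 q overlapped between the genotypes. A last region, at 89386342 to 89386538, was found in KO-2 alone with a fold enrichment of 2.58.

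Of the 6 regions with a peak in every library at the 4 genes, the percentiles did not overlap with KO higher at 2 (16.5% of all such regions) and with WT higher at 2 (25.9% of all such regions), and they overlapped at the other 2. The 2 with KO higher were the main region of Cd4 and the internal region of Zbtb7b, and the 2 with WT higher were both in Zbtb7b. A peak sums over all cells of a library, so fewer cells with an open site and a less open site in each cell cannot be told apart.

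Cd8b1 (chromosome 6, 71322788 to 71337492) encodes the beta chain that pairs with the alpha chain on CD8 T cells, and its start was open in every library. The region over it, at 71321939 to 71323311, showed fold enrichment at 3.93 in KO-1 and 7.40 in KO-2, against 4.13 in WT-1 and 4.38 in WT-2. Only KO-2 stood apart. The summits lay from 31 bp before to 38 bp after the start. The lncRNA gene Gm38828 ends 131 bp before Cd8b1 and overlaps the same region, so the 2 genes cannot be told apart there. Among the 20000 peaks of each list with the highest −log10 p, only KO-2 kept a peak at this region. A further 3 regions before the gene, within Gm38828, and 1 after it were found in KO-2 alone, with fold enrichments of 2.98 to 3.26. No other part of the 14705 bp interval held a region.

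Cd8a (chromosome 6, 71373427 to 71379171), the gene of the alpha chain without which neither form of CD8 reaches the cell surface, had no peak within its 5745 bp in any library. Its single region, at 71369522 to 71369768, lay outside the gene and was found in WT-1 alone, with a fold enrichment of 2.60 and a −log10 q of 2.00, the lowest value in that list. The 9462 bp from Cd8a to Rmnd5a, the next gene beyond it, held no region. The 35934 bp between Cd8b1 and Cd8a held that region and 1 more, found in KO-2 alone. Rmnd5a had its strongest peak at percentile 97.9 in KO-1 and 95.7 in KO-2, against 95.9 and 95.3 in WT-1 and WT-2.

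The Cd8a promoter window of RefSeq (GRCm38.p6, plus strand) is shown because no peak covered any of its 300 bases in the 4 libraries, as was so for 58.7% of all windows. It has no capitals because none of the RUNX, ETS, GATA, GC box and TATA letters searched occur in it on either strand, while CANNTG occurs 3 times. Its GC content is 46.7%, against 59.7% for the upstream and 63.3% for the internal window of Zbtb7b, and 53.8% on average over all windows.
Cd8a promoter, chr6:71373177-71373476: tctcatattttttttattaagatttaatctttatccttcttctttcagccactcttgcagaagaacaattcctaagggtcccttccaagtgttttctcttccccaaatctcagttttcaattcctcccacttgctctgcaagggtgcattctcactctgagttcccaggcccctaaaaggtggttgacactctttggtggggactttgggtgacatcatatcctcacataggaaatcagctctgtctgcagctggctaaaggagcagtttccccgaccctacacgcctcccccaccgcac

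Factors known to act on the coreceptor genes had both KO-only and WT-only regions. The 19 genes held 408 regions, and every library had a peak at 131 of them (32.1%, against 27.6% of all regions). Of the 408, 22 were KO-only (5.39%, against 1.78% of all regions) and 27 were WT-only (6.62%, against 8.8%). Regions with a peak numbered 207 in KO-1 and 284 in KO-2, against 226 in WT-1 and 247 in WT-2, 245.5 ± 54.4 in KO and 236.5 ± 14.8 in WT (SD, n = 2 each; exact two-sided permutation p = 1). As shares these counts were 50.7% in KO-1 and 69.6% in KO-2, against 55.4% in WT-1 and 60.5% in WT-2. Over all regions the shares were 40.9% in KO-1 and 60.0% in KO-2, against 54.4% in WT-1 and 60.2% in WT-2. Both KO libraries thus lay above their share over all regions, and both WT libraries lay close to it. By gene, 5 had more KO-only and 7 more WT-only regions and 7 had as many of both, with a median difference of 0. Over the 16493 genes with a region, 4.61% had more KO-only and 24.9% more WT-only regions, and the median was also 0. The median gene held 3 regions, fewer than nearly all of the regulators. A gene with more regions can more easily have unequal counts, so these shares are not on a like basis.

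Tox, the targeted gene, held 7 of the 22 KO-only regions and 1 WT-only region. Lef1, an HMG-box factor that acts with TCF-1 on CD4 lineage choice, had 0 KO-only and 4 WT-only regions of 36. Bcl11b, a zinc finger factor needed for T cell identity, had 4 KO-only and 1 WT-only of 41. Runx3, which represses Cd4 and Zbtb7b in CD8 T cells, had 0 KO-only and 3 WT-only of 30. Tcf12, which encodes the E protein HEB, had the same difference, with 1 KO-only and 4 WT-only of 18. The strongest peak of Runx3 stood at percentile 98.1 in KO-1 and 98.8 in KO-2, against 88.4 in WT-1 and 95.0 in WT-2. That of Tcf12 stood at 86.7 in KO-1 and 92.9 in KO-2, against 88.3 in WT-1 and 91.8 in WT-2. Gata3, which acts ahead of Zbtb7b in the thymus, had 1 KO-only and 0 WT-only of 19, and Patz1, which encodes the Cd8 repressor MAZR, had neither among 5. No test was run on single genes, and the values describe these 4 libraries.

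Markers of other cell types differed between the libraries. Over all regions the share with a peak was 40.9% in KO-1 and 60.0% in KO-2, against 54.4% in WT-1 and 60.2% in WT-2. Of 105 regions at 8 B cell genes, 7 had a peak in KO-1 and 15 in KO-2, against 76 in WT-1 and 88 in WT-2, and the defining gene Ms4a1 had no peak in either KO library. Of 74 regions at 7 myeloid genes, 21 had a peak in KO-1 and 34 in KO-2, against 51 in WT-1 and 57 in WT-2, with none at Adgre1 or Csf1r in either KO library and none at Lyz2 in any. Itgam, in the same list, had its strongest peak at percentile 72.6 in KO-1 and 79.0 in KO-2, against 58.9 in WT-1 and 62.5 in WT-2. Of 28 regions at 5 genes of cDC1, the dendritic cells that carry CD8 alpha in mouse lymphoid tissue, 6 had a peak in KO-1 and 12 in KO-2, against 15 in WT-1 and 15 in WT-2. Their defining gene Xcr1 had no region in any library. Wdfy4 carried this difference, with 0 regions in KO-1 and 3 in KO-2, against 8 in WT-1 and 7 in WT-2, while the counts at Clec9a, Batf3 and Itgae overlapped between the genotypes. For each of these 3 lists the exact two-sided permutation p over libraries was 0.333, the smallest it can be. The B cell and myeloid counts were higher in both WT libraries. At regions with a peak in every library, percentile differences went in both directions at Zbtb7b. At Cd4 the percentile was higher in KO while fold enrichment overlapped. A link of these differences to the marker counts was not tested. Some mouse dendritic cells also carry CD4.

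**Figure D5:**
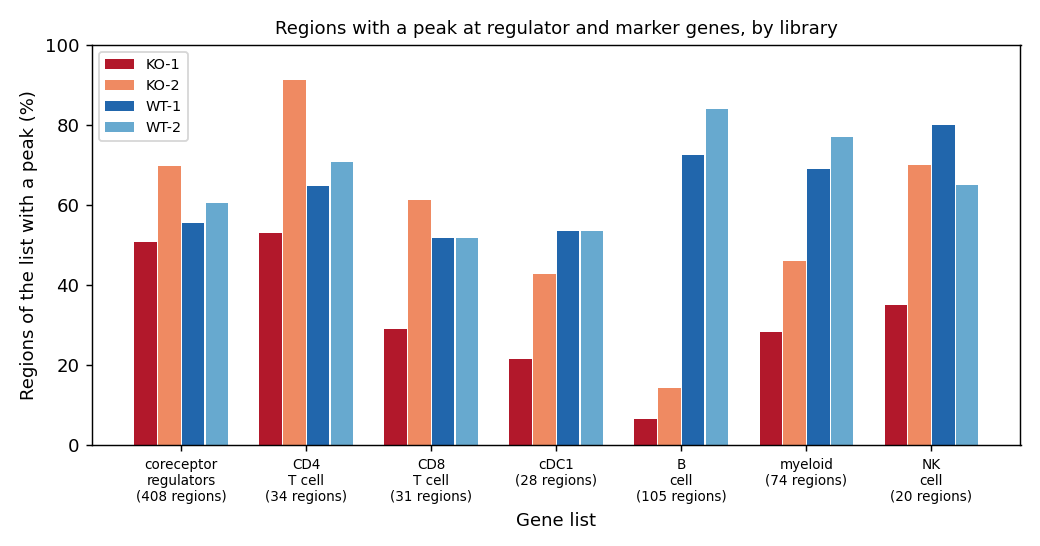
Percent of the regions of each gene list with a peak (y axis) in each library, KO left of WT, for the coreceptor regulators and the marker lists of 6 cell types. B cell genes have a peak at 6.67% and 14.3% of their regions in the KO libraries, beside 72.4% and 83.8% in the WT libraries, and the CD4 T cell genes at 52.9% and 91.2% beside 64.7% and 70.6%.

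The CD4 T cell list, which holds Cd4, Zbtb7b, Cd40lg and the CD3 genes of all T cells, had a peak at each of the 6 in every library. Of its 34 regions, 18 had a peak in KO-1 and 31 in KO-2, against 22 and 24 in WT-1 and WT-2. The CD8 T cell list had a peak at 4 of its 6 genes in KO-1 and 4 in KO-2, against 6 in WT-1 and 5 in WT-2. Of its 31 regions, 9 had a peak in KO-1 and 19 in KO-2, against 16 and 16 in WT-1 and WT-2. Of all 16493 genes with a region, 13754 had a peak in KO-1 and 14918 in KO-2, against 14603 in WT-1 and 14953 in WT-2. Most genes thus had a peak in each library, so little can be read from the gene counts of either list. The CD4 list was ahead of the CD8 list in each library by share of regions, at 52.9% against 29.0% in KO-1, 91.2% against 61.3% in KO-2, 64.7% against 51.6% in WT-1 and 70.6% against 51.6% in WT-2. The lists hold the coreceptor genes and Zbtb7b themselves, so this repeats their values in part, and the CD8 list lay close to the share over all regions in KO-2 (60.0%) and WT-1 (54.4%).

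Genes were also ranked by how like a member they were over 8 values, the percent of the gene's regions with a peak and the percentile of its strongest peak in each of the 4 libraries, with 0 for no peak, among 5587 genes with at least 5 regions. The nearest to Zbtb7b were Zfp335, Dusp7 and Mrps31, which differed from it by 2.73, 3.08 and 3.42 points on average. The nearest to Cd4 were Kmt2c, Tac4 and Luzp1, at 4.15, 4.42 and 4.68 points. The nearest to Cd8b1 were Cfap20dc, Trpm3 and Usp29, at 6.75, 6.79 and 7.02 points. The nearest to Cd8a were Skint3, Plppr1 and Rnf180, at 13.0, 13.4 and 14.1 points. With 4 libraries these are descriptions. Cd8a, with 1 region, and Cd4, with 3, were compared only with genes of at least 5 regions. Genes with as few regions as Cd8a were left out, so its larger distances do not show that it lacks a close match.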

How the data were processed

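ATAC-seq gave 1 peak list for each of 2 KO and 2 WT libraries, which the labels group by genotype. The tools named, per the submitters' processing notes, are MACS2, BWA, deepTools, Picard and SAMtools, and the builds are mm10 and GRCm38. How reads were filtered and shifted, and with which settings, is not stated there. Each deposited list, in the narrow peak layout of 10 columns without a header, belonged to 1 library. Its deposited fold enrichment is the ratio of a peak to the caller's background in that library. Column values of −log10 p and −log10 q, also deposited, score each peak against the same background, and no −log10 q lay under 2.00. Depth is unknown, so no counting interval or floor was set.

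Peaks overlapping by 1 bp or more were merged, and each region went to the nearest protein-coding interval (RefSeq, GRCm38.p6) within 100 kb, with ties going to the gene whose end was closest. No member region had a tie. The strongest peak of a library in a region gave its value. Coordinates are 1-based, and exons and introns were not used here. Direction of transcription came from the promoter table for Cd8a and Zbtb7b, and from general knowledge for Cd4, Cd8b1 and Tox. RefSeq promoter windows matched 2 of the 4 members. Counts of regions per library were compared by an exact two-sided permutation test over libraries. Classes and percentiles were described without a test. Merging and assignment were tested on simulated data. Tcf12, which tied with the last of the 4 regulators, and Itgam, Pax5, Wdfy4, Clec9a, Batf3 and Itgae were named after their values were seen. Other genes named beside the members were, by rule, the 4 regulators with the largest difference of KO-only and WT-only regions (ties in alphabetical order), Runx3, Gata3, Patz1, the 3 genes most like each member, and neighbors. Alternatives were stricter or equally long lists, another overlap, other gene assignment, each replicate left out, a replicate block, and percentiles of −log10 q. The values of 1 marker gene are not reported here. The members and lists were chosen with earlier results of these data known. Python 3.11, pandas 2.3.3, NumPy 2.4.6.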

Additional observations from a re-analysis of the deposited data

How the results depend on the processing

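Differences are KO minus WT means of regions with a peak, 0.5 for Cd4, −0.5 for Cd8a, 2 for Cd8b1, 0 for Zbtb7b and 2 for the 4 genes together. With a −log10 q of at least 5 they were 0 for Cd8a, 0 for Cd8b1 and 1 for Zbtb7b, with 1 KO-only region, and the lowest percentile of the strongest peak over libraries was 74.0 for Cd4, 24.1 for Cd8b1 and 61.1 for Zbtb7b, against 82.1, 51.0 and 77.1 with all peaks. The 4 genes together then gave 1.5. With at least 10 they were 0 for Cd4, 0 for Cd8a and 0.5 for Zbtb7b, with 1 KO-only region, 3 with a peak in every library, and percentiles of 63.3 and 47.4 for Cd4 and Zbtb7b. With the 20000 peaks of the highest −log10 p they were 0, 0 and 0.5 for the same genes, again with 1 KO-only region and 3 with a peak in every library, and percentiles of 49.3 and 29.2. Under both of these settings and with any RefSeq gene type, Cd8b1 fell to 0.5 and the 4 genes together to 1. These percentiles are taken within shorter lists of stronger peaks. Joining peaks only where they shared at least 50% of the shorter one gave 0 for Cd4. Any RefSeq gene type gave 0.5 for Zbtb7b and a percentile of 59.8, because lncRNAs took regions. Ranking by −log10 q gave Zbtb7b 88.7 and placed it above Cd4 in KO-1, WT-1 and WT-2.

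Leaving out each replicate gave differences from −1 to 1.5 for Cd4, −1 to 0 for Cd8a, 0 to 5 for Cd8b1, −1 to 2 for Zbtb7b and −2.5 to 8 together. The difference was below 0 for Cd4 (−1), Zbtb7b (−1) and together (−2.5) without KO-2. KO-only regions ranged from 0 to 8 (8 without KO-1, where KO-2 alone stands for KO), WT-only from 0 to 1, and regions with a peak in every library from 6 to 7. Lowest percentiles ranged from 82.1 to 83.7 for Cd4, 51.0 to 55.2 for Cd8b1 and 77.1 to 80.1 for Zbtb7b. As replicate block, KO-1 minus WT-1 and KO-2 minus WT-2 gave the same mean differences (2 together) with an exact sign-flip p of 1. The numbers share no stated origin, and the deviations of KO-1 and WT-1 correlated at −0.0153 over 97394 regions. Cd8a had no lowest percentile under any setting, and Cd8b1 had none with a −log10 q of at least 10, with the 20000 peaks or with any gene type.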

Other observations

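Other genes of CD8 T cells and natural killer cells had peaks in these libraries, and which cells these came from was not tested. Eomes, a T-box factor of CD8 memory and natural killer cells, had 0 KO-only and 2 WT-only regions of 12, and its strongest peak stood at percentile 59.9 in KO-1 and 73.9 in KO-2, against 68.5 in WT-1 and 65.9 in WT-2. Klrd1, which encodes the receptor chain CD94, had 1 region, with a peak in neither KO library and in both WT libraries at percentiles 23.2 and 35.0. Crtam and Gzmk, genes of cytotoxic T cells, had no genotype-specific region among 5 and 7. Over all regions 1.78% were KO-only and 8.8% WT-only, so little can be read from such small counts at single genes. For the natural killer list below, the share of regions with a peak was 35% in KO-1 and 70% in KO-2, against 80% in WT-1 and 65% in WT-2. Over all regions it was 40.9% in KO-1 and 60.0% in KO-2, against 54.4% in WT-1 and 60.2% in WT-2. Of 20 regions at 4 natural killer cell genes, 7 had a peak in KO-1 and 14 in KO-2, against 16 in WT-1 and 13 in WT-2, 10.5 ± 4.95 in KO and 14.5 ± 2.12 in WT (SD, n = 2 each; exact two-sided permutation p = 0.667).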
